A study of Mus musculus with 4 samples.

Results

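The regions described here are m6A peaks that the authors annotated as exonic, meaning exons outside the 5' and 3' UTR classes. They were taken by that annotation alone, not by their values. There were 8353 such peaks among 36507 in the WT peak list (22.9%, in 4785 genes) and 8765 among 38697 in the cKO peak list (22.7%, in 4931 genes). The authors' deposited table of differences held 1739 exonic rows among 10355 (16.8%, in 1489 genes).

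The cells were bone-marrow-derived macrophages of C57BL/6 mice, grown with macrophage colony-stimulating factor for 7 days and then kept with MC38 colon carcinoma cells for 24 h. WT cells were Mettl3fl/fl, with loxP-flanked Mettl3 and no Cre. The cKO cells were Mettl3fl/fl with LysM-cre, a Cre under the myeloid lysozyme M promoter, so that carcinoma cells and non-myeloid marrow cells keep the gene. Both genotypes thus carry the floxed alleles, and each has 1 m6A pulldown library (IP) and 1 input library. With 1 library per group, every genotype difference below compares 2 libraries and has no replicate check, and the spread between cultures cannot be given. Depth is unknown, since read totals were not used here. Shares carry 95% Clopper-Pearson (exact) intervals for counting error only.

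N6-methyladenosine (m6A) is a methyl mark that a complex around the catalytic subunit METTL3 places on adenosines of messenger RNA, mostly within short motifs such as GGAC. It is best known near stop codons and in 3' UTRs, and also occurs inside coding sequence, above all in long exons. Reader proteins of the YTH family bind the mark and influence how long a transcript lasts and how it is processed. In the assay, RNA fragments are pulled down with an antibody against m6A, and a peak is a stretch where pulled-down fragments outnumber input fragments. The enrichment of a peak is its log2 IP over input, the authors' own value, where 1 stands for a 2-fold and 2 for a 4-fold excess.

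The following stretches show what such peaks look like in sequence. Each is the central part, at most 150 bases, of the longest coding piece of a peak that lies in 1 exon, written 5' to 3' on the RNA strand from GENCODE M21 transcripts (GRCm38, the same build as mm10), with GGAC in capitals. The first pair had the highest WT enrichment among single-exon peaks of genes with a mean input level of at least 5 FPKM. Ahnak2 encodes a very large scaffold protein, and Usp47 encodes a ubiquitin-specific protease.
Ahnak2, chr12:112778456-112778605, minus strand: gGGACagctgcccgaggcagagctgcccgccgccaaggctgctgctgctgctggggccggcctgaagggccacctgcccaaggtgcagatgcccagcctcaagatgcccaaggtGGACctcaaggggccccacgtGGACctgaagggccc
Usp47, chr7:112093021-112093170, plus strand: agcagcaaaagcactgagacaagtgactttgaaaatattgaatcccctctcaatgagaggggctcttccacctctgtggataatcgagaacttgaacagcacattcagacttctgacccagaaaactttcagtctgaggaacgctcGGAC
The Ahnak2 stretch holds GGAC 3 times and the Usp47 stretch 1 time. Their whole peaks, of 1175 bp each, hold it 16 and 11 times, against 6 and 1 occurrences of the reverse complement GTCC. Ahnak2 reached 5.03 (log2 IP over input) in WT and 4.20 in the overlapping cKO peak, and Usp47 had 4.98 and 4.56.

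The second set comes from single-exon rows of the authors' deposited table of differences, again in genes of at least 5 FPKM. Genes named as H2 class, ribosomal protein or pseudogene copies were passed over because near-identical copies can share reads. That choice went by name only: the genes printed here were not checked for close copies, and the same limit may hold for them. Csf2rb, the shared beta chain of the receptors for GM-CSF, IL-3 and IL-5, and Cic, a transcriptional repressor, had low adjusted p-values among rows lower in the cKO. Gvin1, a very large interferon-inducible GTPase, Capg, an actin-capping protein, and Il11ra1, an interleukin-11 receptor chain, did so among rows higher in the cKO. Ahnak, which ranked between Csf2rb and Cic, is described further on, and its stretch is not printed.
Csf2rb, chr15:78348530-78348679, plus strand: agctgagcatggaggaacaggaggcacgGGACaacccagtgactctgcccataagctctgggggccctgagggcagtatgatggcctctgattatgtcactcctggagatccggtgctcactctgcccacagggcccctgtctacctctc
Cic, chr7:25288645-25288794, plus strand: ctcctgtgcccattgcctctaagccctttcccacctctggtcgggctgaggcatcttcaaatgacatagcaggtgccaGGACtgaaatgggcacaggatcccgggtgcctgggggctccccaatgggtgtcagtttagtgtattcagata
Gvin1, chr7:106165156-106165255, minus strand: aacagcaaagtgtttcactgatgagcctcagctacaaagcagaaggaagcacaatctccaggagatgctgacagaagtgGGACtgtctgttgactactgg
Capg, chr6:72555751-72555864, plus strand: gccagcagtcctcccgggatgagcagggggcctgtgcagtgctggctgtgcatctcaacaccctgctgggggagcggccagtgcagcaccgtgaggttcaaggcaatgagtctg
Il11ra1, chr4:41764719-41764868, plus strand: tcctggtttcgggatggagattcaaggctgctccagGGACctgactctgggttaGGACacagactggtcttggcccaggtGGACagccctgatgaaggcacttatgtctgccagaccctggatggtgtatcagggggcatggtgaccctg
In the authors' deposited table, the Csf2rb peak (850 bp) stood at a log2 IP over input of 1.11 in WT and 0.66 in cKO, and the Cic peak (1025 bp) at 1.34 and 0.87. The Gvin1 peak (100 bp) stood in the authors' deposited table at -0.49 in WT and 2.10 in cKO, and the Il11ra1 peak (200 bp) at -0.14 and 1.36. A negative value means that input fragments outnumbered the pulldown. The Capg peak (275 bp) stood in the authors' deposited table at 0.46 in WT and 0.69 in cKO. The shown stretches hold GGAC 1, 1, 1, 0 and 3 times in the order printed. The Capg stretch lacks GGAC and holds GTCC 1 time, and its whole peak holds each of them 1 time.

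Exonic peaks covered long genomic distances and short stretches of RNA. The median span from first to last base, introns included, was 1516 bp in WT (quartiles 400 to 5138 bp) and 1625 bp in cKO (425 to 5148 bp). The widest reached 266703 bp in WT and 266628 bp in cKO, and 25.5% of WT and 25.6% of cKO exonic peaks spanned over 5000 bp. The deposited lists give only outer positions, so the length within exons was rebuilt from the merged GENCODE exons of each peak's gene. That length had a median of 350 bp in both lists (quartiles 175 to 500 bp). It came out as a multiple of 25 bp in 98.6% of WT and 98.8% of cKO exonic peaks. Peaks in 3' UTRs had a shorter median span, 500 bp in WT and 475 bp in cKO, and a somewhat longer exonic length of 400 bp in both. Coding bases made up 79.5% of the exonic bases of these peaks in WT and 80.5% in cKO, against 30.9% and 29.4% for 3' UTR peaks. About as many peaks lay wholly in coding sequence as did not: 4220 in WT (50.6%) and 4579 in cKO (52.3%). A stop codon of the listed transcript lay inside 109 WT and 110 cKO exonic peaks, no coding base inside 25 and 21, and no exon of the listed gene inside 6 and 9.

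**Figure D1:**
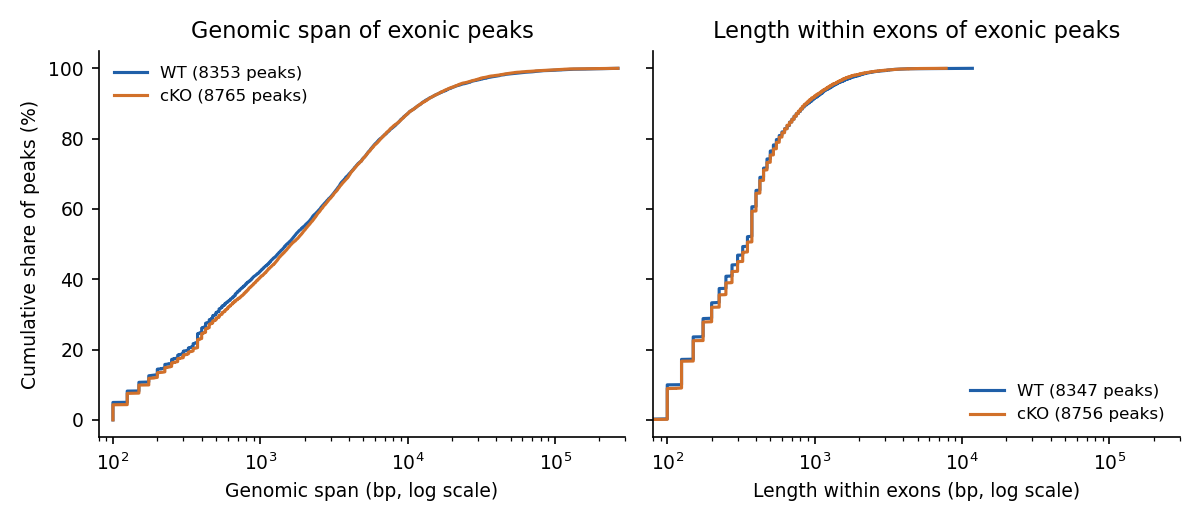
Cumulative share of exonic peaks (percent) by genomic span (left) and by length within exons (right), both in bp on a log axis, for the WT and cKO lists. Medians lie at 1516 and 1625 bp of span but at 350 bp of exonic length in both lists; peaks with no exon of their gene, 6 in WT and 9 in cKO, are left out on the right.

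Most exonic peaks joined pieces of more than 1 exon. Peaks that crossed at least 1 intron numbered 5726 in WT (68.6%, interval 67.5 to 69.5) and 6129 in cKO (69.9%, 69.0 to 70.9), and single-exon peaks 2621 (31.4%) and 2627 (30.0%). Among 3' UTR peaks, 33.3% in WT and 31.1% in cKO crossed an intron. An exonic peak touched a median of 2 exons and at most 24 in WT and 23 in cKO. With only the exons of the transcript named for each peak, the crossing share was 59.5% in WT and 60.9% in cKO. Intron-spanning peaks had a median exonic length of 375 bp in both lists, spread over a median span of 3306 bp in WT and 3256 bp in cKO, and single-exon peaks measured 250 bp.

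Enrichment of exonic peaks was modest. The median log2 IP over input was 0.90 in WT (quartiles 0.72 to 1.36) and 0.92 in cKO (0.75 to 1.32), compared with 1.30 and 1.42 for 3' UTR peaks. At least 2-fold enrichment was found in 3478 WT (41.6%) and 3715 cKO exonic peaks (42.4%). At least 4-fold enrichment was found in 11.7% and 9.99%, compared with 22.8% and 22.2% of 3' UTR peaks. Strong peaks were a larger share of the single-exon class, though more of them in number spanned introns. Among single-exon peaks 446 in WT (17.0%) and 392 in cKO (14.9%) reached 4-fold, against 527 (9.20%) and 479 (7.82%) of the intron-spanning peaks. The median was 0.99 for single-exon peaks in each list, and 0.87 in WT and 0.90 in cKO for intron-spanning ones.

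Enrichment was higher in longer peaks of both classes. The median log2 IP over input of WT exonic peaks was 0.76 up to 125 bp, 0.76 at 126 to 250 bp, 0.79 at 251 to 375 bp, 1.01 at 376 to 750 bp and 1.78 above 750 bp. In cKO the corresponding medians were 0.79, 0.79, 0.83, 1.02 and 1.64. Within each length class, single-exon peaks had the higher median. At 251 to 375 bp they stood at 0.97 in WT and 1.06 in cKO, and intron-spanning peaks at 0.76 and 0.79. Above 750 bp the medians were 1.87 against 1.75 in WT and 1.80 against 1.60 in cKO. The number of exons did not give a single direction: in WT the median went from 0.99 for 1 exon to 0.81 for 2, 0.84 for 3, 0.90 for 4, 0.96 for 5 and 1.20 for 6 or more.

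**Figure D2:**
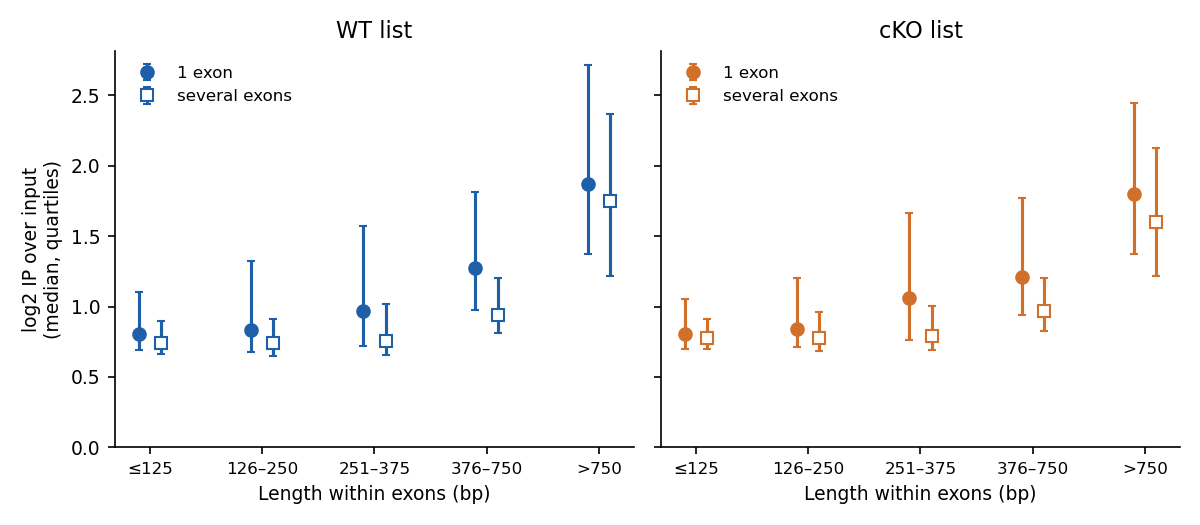
Median log2 IP over input with quartiles (bars) of exonic peaks by length within exons, for single-exon peaks (filled circles) and peaks over several exons (open squares) in the WT (left) and cKO (right) lists. Above 750 bp the medians are 1.87 and 1.75 in WT and 1.80 and 1.60 in cKO, and in each length class the single-exon median is the higher.

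Peaks that lay wholly in 1 coding exon sat mostly in long exons. There were 1441 in WT and 1479 in cKO, and 72.7% (interval 70.3 to 74.9) and 73.4% (71.1 to 75.7) of them lay in coding exons of at least 400 bp, which make up 8.61% and 8.71% of the coding exons of the same genes. A peak fits only into an exon at least as long as itself. Of all places where a stretch of the peak's own length fits into 1 coding exon of its gene, a mean of 74.6% in WT and 75.8% in cKO lay in such long exons. The share of peaks in long exons was therefore close to the share of places that can hold them. Enrichment did differ with the exon's length: the median log2 IP over input was 1.40 in WT and 1.23 in cKO for peaks in coding exons of at least 400 bp, and 0.75 and 0.76 for peaks in shorter ones. Among peaks of 126 to 250 bp the medians were 1.27 in long and 0.74 in shorter coding exons in WT, and 1.15 and 0.82 in cKO. At 100 to 125 bp they were 1.02 and 0.75 in WT, and 0.96 and 0.75 in cKO.

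Along the coding sequence, the middle held more exonic peaks than the ends. With the coding sequence cut into 5 equal parts, from start to end, WT peaks fell at 16.8%, 24.3%, 25.0%, 20.7% and 13.3%, and cKO peaks at 16.3%, 24.2%, 24.1%, 21.4% and 14.0%. Peaks that reach the ends can carry a UTR annotation instead and are then no members, which lowers the first and last shares. The median enrichment differed little between the parts, 0.87 to 0.91 in WT and 0.90 to 0.94 in cKO.

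The GGAC motif was common in these peaks and also beside them. It occurred on the RNA strand in 69.7% of WT (interval 68.7 to 70.7, 5820 of 8347 peaks with sequence) and 70.4% of cKO exonic peaks (69.5 to 71.4, 6167 of 8756). Its reverse complement GTCC, which serves as a count of like base composition, occurred in 61.8% and 63.1%. GGACT, the motif extended by T and contained in the GGAC count, occurred in 33.1% and 33.3%, and its reverse complement AGTCC in 30.5% and 31.2%. Where a window of equal exonic length free of peaks could be placed next to the peak in the same gene (6941 WT and 7226 cKO peaks), 66.4% of WT peaks and 63.0% of windows held GGAC, and 67.1% and 64.6% in cKO. The densities were 4.48 per kb in peaks and 3.90 in windows in WT, and 4.55 and 3.94 in cKO. The gap was wider at peaks enriched at least 4-fold, with 5.26 against 3.83 per kb in WT and 5.35 against 3.77 in cKO. A match is a description of the letters and not a measured site.

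**Figure D3:**
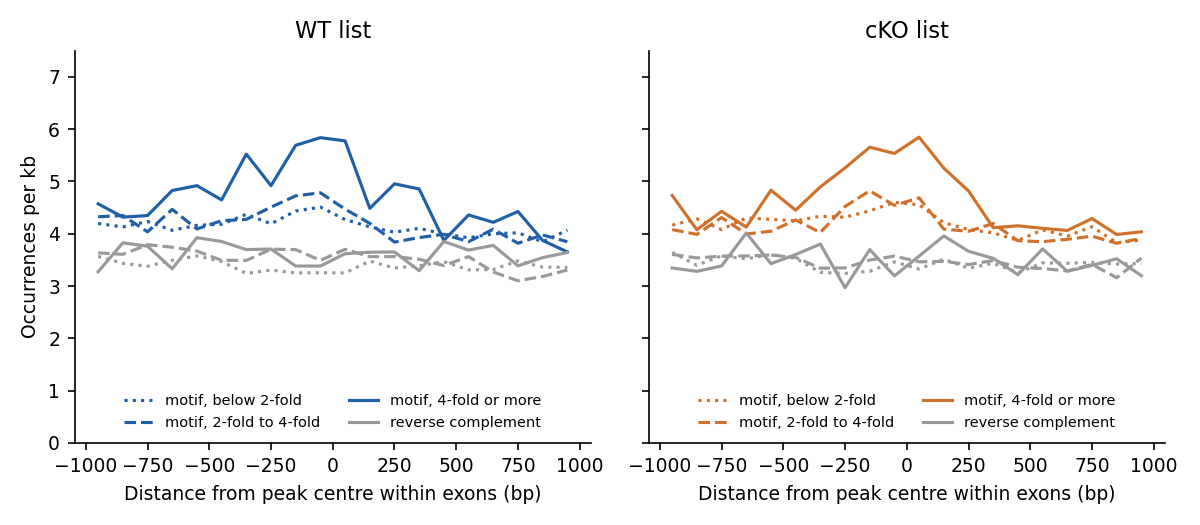
Occurrences per kb of the motif GGAC (coloured) and of its reverse complement (grey) against distance in bp from the peak centre within exons, for WT (left) and cKO (right) exonic peaks enriched below 2-fold, 2-fold to 4-fold, and 4-fold or more. At 4-fold or more the motif reaches 5.84 per kb in WT and 5.85 per kb in cKO within 100 bp of the centre, and the reverse complement lies between 2.97 and 4.01 per kb in all bins and classes.

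Exonic peaks were unevenly spread over genes. A single exonic peak was found in 2842 of the 4785 WT genes (59.4%) and in 2900 of the 4931 cKO genes. At least 4 were found in 370 WT genes (7.73%), which held 22.9% of the WT exonic peaks, and in 412 cKO genes (8.36%), which held 24.7%. The lists shared 198 of these genes, 53.5% of the WT and 48.1% of the cKO ones. Genes with more peaks had longer coding sequences: the median was 1659 bp in WT and 1608 bp in cKO for genes with 1 exonic peak, and 11165 and 10920 bp for the 32 and 38 genes with 8 or more. The rank correlation across genes between peak number and coding length was 0.45 in WT (4780 genes) and 0.47 in cKO (4923 genes), given as a description of points that share libraries. Per kb of coding sequence, the median number of peaks was 0.60 in WT genes with 1 peak, 0.92 with 2 or 3, 1.04 with 4 to 7 and 0.88 with 8 or more. The median enrichment did not follow the number of peaks, at 0.91, 0.89, 0.89 and 0.88 in the same WT groups.

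The genes with most exonic peaks encode giant proteins. Dst, which encodes a spectraplakin that links cytoskeletal filaments (chromosome 1, 29476 coding bp in 110 exons), had 26 in WT and 23 in cKO, which covered 35.8% and 39.0% of its coding bases. Its enrichment ranged from 0.54 to 2.85 in WT and from 0.53 to 3.51 in cKO. Syne2 and Syne1, whose nesprin proteins tie the nucleus to the cytoskeleton, differed in opposite directions: Syne2 had 22 in WT and 11 in cKO, and Syne1 had 13 and 18. Macf1, another spectraplakin, had 16 and 10. Vps13b, a lipid-transport protein gene, had 12 and 11, and Utrn, which encodes the dystrophin relative utrophin, had 12 and 8. F5, the gene of coagulation factor V, had 5 in WT and 13 in cKO. They covered 50.4% of the coding bases of F5 in each list, but only partly the same ones, since 29.0% were covered in both. The histone methyltransferase gene Kmt2d had 10 and 11 peaks that covered 74.1% and 76.5% of its 16869 coding bp, and its relative Kmt2c had 7 and 12.

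A peak number can miss genes in which peaks merge or carry another annotation. Ahnak, the gene of a giant scaffold protein with a coding exon of 16623 bp, had 1 exonic peak in WT and 4 in cKO. That WT peak covered 11750 bp within exons at a log2 IP over input of 1.74, and the 4 cKO peaks stood at 1.62, 1.46, 1.93 and 1.78. The WT peak overlapped the first pair of cKO peaks, and the other 2 overlapped WT peaks annotated as 3' UTR, at 2.16 and 1.27. Exonic peaks covered 68.5% of the coding bases of Ahnak in WT and 95.5% in cKO, and peaks of any annotation 98.4% and 95.9%. Plec, which encodes the cytolinker plectin, had 4 and 6 peaks, and the longest covered 7625 bp at 2.59 in WT and 7350 bp at 2.23 in cKO.

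Ahnak2 had a run of strongly enriched exonic peaks on 1 exon, a coding exon of 12687 bp. From its 5' to its 3' end, the 6 WT peaks on it stood at 4.67, 4.42, 4.23, 4.38, 5.03 and 4.70. The 6 cKO peaks that overlap them stood at 4.23, 4.64, 3.40, 4.10, 4.20 and 4.16. Upstream of them, the peak at the start of the exon carried a 5' UTR annotation in WT at 3.38 and an exonic one in cKO at 3.03. A further exonic cKO peak, at 0.87, lay upstream of the exon within the span of that WT peak. With these 2, the cKO list holds 8 exonic peaks of the gene and the WT list 6. The cKO value was the lower in 5 of the 6 pairs and the higher in the second. The exon as a whole held GGAC at 11.0 per kb and GTCC at 5.91 per kb, both above the averages of all exonic peaks, which were 4.49 and 3.39 per kb in WT.

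**Figure D4:**
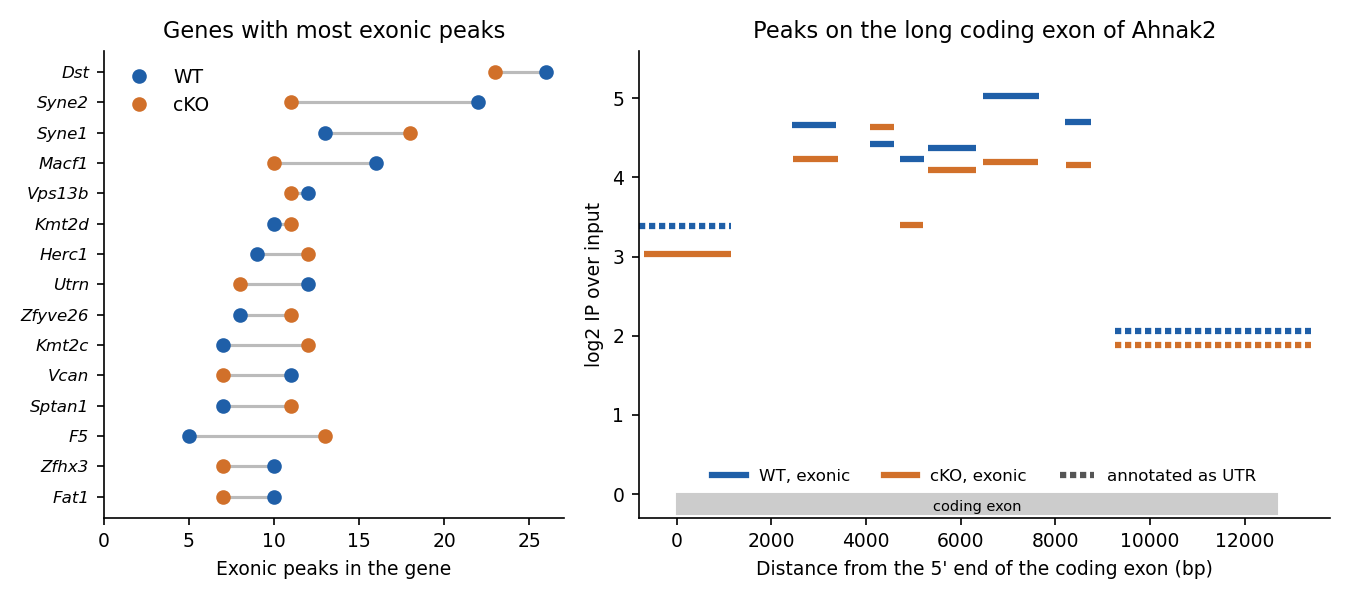
Left, number of exonic peaks in the WT and cKO lists for the genes with most of them, joined by a line. Right, log2 IP over input of each peak on the 12687 bp coding exon of Ahnak2 against the distance in bp from the exon's 5' end, with dotted bars for peaks annotated as UTR. The exonic WT peaks lie between 4.23 and 5.03, and 1 cKO peak outside the drawn range, at 0.87, is left out.

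Gene lists chosen for their length, function or cell type differed in how many members carried exonic peaks. Over all genes with a peak, 34.6% in WT and 35.2% in cKO had an exonic one. Among cytoskeletal and scaffold giants it was 14 of 16 genes in WT and 15 of 16 in cKO, and 70.6% and 71.3% of their peaks were exonic. Chromatin regulators had exonic peaks in 27 of 28 genes in both lists, with 125 peaks in WT and 132 in cKO. The chromatin remodeller gene Chd8 had 10 and 7, and Kmt2a 9 and 8. Giant ubiquitin ligases had them in all 10 genes, with 44 and 63 peaks, of which Herc1 held 9 and 12 and Rnf213 4 and 7. RNA processing and nuclear speckle genes had them in 9 and 10 of 12, led by Prrc2c with 7 in each list. The KRAB and other zinc finger genes named Zfp had 239 exonic peaks in 153 of 330 genes in WT and 255 in 157 of 334 in cKO, at a higher median log2 IP over input (1.46 and 1.47) than all exonic peaks.

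Cytosolic ribosomal protein and lysosome genes seldom had exonic peaks. The immune lists hold few genes each, and their shares lay near those over all genes, apart from cytokine and NF-kB genes in cKO. Cytosolic ribosomal protein genes had exonic peaks in 4 of 48 genes in WT and 6 of 47 in cKO, and lysosome and cathepsin genes in 1 and 2 of 18. Macrophage surface and uptake genes had them in 6 of 15 in WT (40.0%) and 6 of 14 in cKO (42.9%). The scavenger receptor gene Msr1 had 2 in each list, Mrc1, the mannose receptor gene, had 2 and 3, and Stab1, the stabilin-1 gene, had 2 and 4. Of the JAK-STAT genes, which carry cytokine signals, 8 of 20 in WT (40.0%) and 9 of 20 in cKO (45.0%) had one. Jak1 had 3 peaks in each list with medians of 0.66 and 0.76. Cytokine and NF-kB genes had 8 exonic peaks in 6 of 16 genes in WT (37.5%) and 3 peaks in 3 of 15 in cKO. Il6, the interleukin-6 gene, had 1 in each list, at 0.74 over 200 bp in WT and 0.72 over 400 bp in cKO. At a row of 250 bp in the authors' deposited table, Il6 stood at 0.42 in WT and 1.03 in cKO (adjusted p 0.0811).

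Genes of the m6A pathway carried exonic peaks themselves. Of the writers, erasers and readers with any peak, 9 of 19 genes in WT (47.4%) and 12 of 20 in cKO (60.0%) had an exonic one. Over all genes with a peak the shares were 34.6% and 35.2%. Of the peaks in these pathway genes 20.9% in WT and 25.0% in cKO were exonic, close to the 22.9% and 22.7% of all peaks. Ythdc1, the nuclear reader, had 5 and 4, with medians of 1.18 and 1.34, and Ythdc2, a reader with helicase activity, had 1 and 3, with medians of 1.04 in each. Virma, a scaffold of the writer complex, had 1 and 2. Mettl3 had no exonic peak in WT and 1 in cKO, at a log2 IP over input of 1.80 over 375 bp in 4 exons. The authors' deposited table of differences holds no exonic row for Mettl3, and no input value of the gene was used here, so the deletion was not checked from these values.

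Over 50% of the exonic positions of each genotype met a peak of the other. A peak of the other list overlapped 4931 WT exonic peaks by at least 1 bp on the same strand (59.0%, interval 58.0 to 60.1) and 5235 cKO exonic peaks (59.7%, 58.7 to 60.8), compared with 73.2% and 71.3% of all peaks. Exonic peaks without a partner had lower medians of length and enrichment than those with one. In WT they had a median of 225 bp and a log2 IP over input of 0.83, against 425 bp and 0.96, and in cKO 225 bp and 0.84 against 425 bp and 0.98. With both peaks overlapped over at least 50% of their span, the shares were 30.6% and 29.9%. Of the 3148 WT exonic peaks with exactly 1 partner that itself had only 1, 2790 (88.6%) met a cKO peak that was also exonic, 141 a 5' UTR peak, 126 a 3' UTR peak and 91 an intronic one.

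At the 2790 exonic positions matched one to one, the medians of both genotypes lay close together. The median log2 IP over input was 0.96 in WT and 0.98 in cKO, and the median difference, cKO minus WT, was 0.00 (quartiles -0.20 to 0.17). The cKO value was the lower at 1383 positions (49.6%, interval 47.7 to 51.4), where 45.2% of the one-to-one positions of all annotations were lower. Differences of at least 2-fold were seen at 73 lower and 44 higher positions, so that 95.8% lay within 2-fold, where 5.58% of one-to-one positions of all annotations were at least 2-fold apart. The 3' UTR positions had a median difference of 0.07 with 42.2% lower, and the 5' UTR positions -0.03 with 54.0% lower. Across the 2790 positions Pearson's r was 0.82 and Spearman's rho 0.78, a description of points that share libraries.

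Weak and strong positions differed in direction. In 5 equal groups by mean enrichment, from weakest to strongest, the cKO value was lower at 36.9%, 41.8%, 48.6%, 54.5% and 66.1% of the positions. In the strongest group the medians were 2.46 for WT and 2.24 for cKO, and the median difference was -0.19. In the weakest group it was 0.04. Within the strongest group the cKO was lower at 71.3% of positions that spanned introns in both lists and at 58.4% of those in a single exon. The scaling of IP to input libraries is not given in the sources used here, so a shift common to all peaks of a library cannot be told apart from a change of methylation.

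The authors' deposited table of differences, which lists peaks with p below 0.05 between these single libraries, held more exonic rows lower in the cKO than higher. Lower were 1014 of 1739 (58.3%, interval 56.0 to 60.6) and higher 725 in the authors' deposited table, where 51.1% of rows of all annotations were lower. With the authors' adjusted p below 0.05, the authors' deposited table had 478 of 760 exonic rows lower (62.9%), against 54.3% over all annotations. Exonic rows at least 2-fold lower numbered 432 (24.8%) in the authors' deposited table, against 15.8% over all annotations, and rows at least 2-fold higher 370 (21.3%), against 19.7%. For 5' UTR rows these shares were 22.8% lower and 22.1% higher in the authors' deposited table. The median log2 IP over input of the exonic rows in the authors' deposited table was 1.12 in WT and 1.02 in cKO. Single-exon rows were lower in 60.0% of 510 and intron-spanning rows in 57.6% of 1228.

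Long and strong rows were the ones mostly lower. In the authors' deposited table, 82.4% of the 393 exonic rows of over 750 bp were lower, against 51.5% of 303 rows up to 125 bp, 49.6% of 355 at 126 to 250 bp, 44.3% of 289 at 251 to 375 bp and 57.6% of 399 at 376 to 750 bp. In 5 equal groups by mean enrichment, the lower share in the authors' deposited table was 47.1%, 48.6%, 51.9%, 60.6% and 83.3%. Among the listed rows, large differences were more frequent in genes with little input. Rows in genes with a mean input of at least 5 FPKM differed at least 2-fold in 70 of 633 cases (11.1%), and rows in genes below that level in 729 of 1102 (66.2%). Only rows with p below 0.05 are listed, so these shares do not describe all positions of such genes. Rows that overlap a peak in both lists were lower in 554 of 815 cases (68.0%). Rows that overlap a peak of 1 list only take their direction from that list (442 of 445 lower for WT, 450 of 454 higher for cKO).

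**Figure D5:**
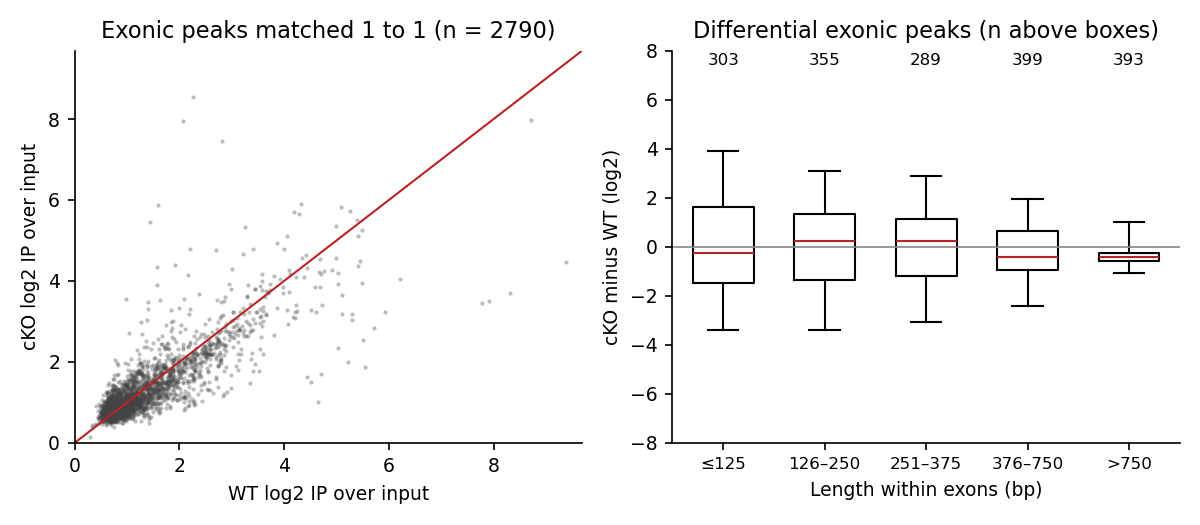
Left, log2 IP over input in cKO against WT at the 2790 exonic positions matched one to one, with the line of equal values. Right, cKO minus WT (log2) of exonic rows in the authors' deposited table by length within exons (boxes, quartiles with the median; whiskers, 5th and 95th percentiles), with the number of rows above each box. Above 750 bp 82.4% of the rows are lower in the cKO.

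Most of the 10 rows with the lowest adjusted p had differences below 2-fold. In the authors' deposited table, Csf2rb differed by -0.45 (adjusted p 5.65e-52), with input levels of 219.7 FPKM in WT and 220.3 FPKM in cKO. Gpnmb, a transmembrane glycoprotein gene of activated macrophages, went from 0.26 in WT to 0.11 in cKO in the authors' deposited table (difference -0.15, adjusted p 1.47e-35). Its input level was 1009.9 FPKM in WT and 1695 FPKM in cKO. Slamf7, which encodes a receptor of the SLAM family, went from 3.51 to 3.08 over 4100 bp in 7 exons (adjusted p 7.10e-35, authors' deposited table). The long Plec peak went from 2.55 to 2.14 over 7650 bp, all coding (adjusted p 1.65e-21, authors' deposited table). Iqsec1, an exchange factor gene for ARF GTPases, went from 2.73 to 2.24 over 1925 bp in 8 exons (adjusted p 2.43e-18, authors' deposited table). All 4 exonic rows of Ahnak in the authors' deposited table were lower, by 0.20 to 0.30 on the log2 scale, and so were all 4 of Ahnak2, at -0.87, -0.85, -0.56 and -0.30, of which the first pair had an adjusted p below 0.05.

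Some rows of the lowest adjusted p cannot be assigned with certainty. H2-Q6 (4.07 in WT, 3.41 in cKO) and H2-Q7 (1.21 and 0.88), class I histocompatibility genes, have near-identical copies that may share reads, and both were lower in the authors' deposited table. Eno1b (-1.41 and 2.08) and Ftl1-ps1 (0.17 and 0.96), copies of an enolase and a ferritin gene, were higher in the authors' deposited table. The same limit holds for Rpl7a and Srp54c below. Other named genes, the printed stretches included, were not checked for close copies, so it may hold for some of them too.

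The largest falls in genes with at least 5 FPKM were at short coding stretches. In the authors' deposited table, Phgdh, the first enzyme of serine synthesis, went from 7.07 in WT to -0.48 in cKO (adjusted p 1.33e-05) at a row of 325 bp that holds 66 coding bases. The exonic Phgdh peak of the WT list that contains this row, of 550 bp, stood at only 1.18. The authors' deposited table gives Ube2v1, a ubiquitin-conjugating enzyme variant, at 2.00 and -4.08 (adjusted p 0.0437), and Epb41l2, a membrane skeleton protein gene, at 2.45 and -1.09 (adjusted p 1.16e-04). Fads1, a fatty acid desaturase gene, went from 2.82 to -0.56 over 100 bp in the authors' deposited table, with input levels of 5.10 FPKM in WT and 9.42 FPKM in cKO. The Fads1 row overlapped no peak of either list, whereas the other 9 of these 10 falls met a WT peak. Setd1a, a histone methyltransferase gene, went from 1.28 to -0.53 over 145 coding bases (adjusted p 0.00250, authors' deposited table). The falls of Tesk1 (-2.34, adjusted p 0.0251) and Tcof1 (-2.15, adjusted p 0.00846) were also below that threshold in the authors' deposited table. Ankib1 (-3.08), Oxr1 (-2.32) and a row of Gvin1 (-1.96) had adjusted p-values of 0.0718, 0.104 and 0.0986 there.

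The largest rises included positions where the WT pulldown was below its input. In the authors' deposited table, Loxl2, a collagen cross-linking enzyme gene, went from -6.68 in WT to 4.52 in cKO (adjusted p 1.80e-05). Its row measured 250 bp, all coding. The input levels of the whole gene were 13.0 FPKM in WT and 13.2 FPKM in cKO, which do not give the reads at the row itself. Mfap1a, a spliceosome component, went from 1.54 to 5.83 over 575 coding bases in 4 exons (adjusted p 2.30e-07, authors' deposited table), and among the 10 largest rises it alone met a peak of both lists. Tgfb1, which encodes the cytokine TGF-beta 1, went from -0.71 to 3.17 over 125 bp (adjusted p 0.00888, authors' deposited table). The authors' deposited table gives Dpf2, a subunit of chromatin remodelling complexes, at -1.80 and 2.40 (adjusted p 0.0128), and Vps41, a gene of vesicle fusion, at 0.11 and 3.15 (adjusted p 0.0165). Rpl7a (-2.02 to 2.26) and Srp54c (-1.34 to 2.93) rose as well in the authors' deposited table, as did Tnfrsf23 (0.96 to 3.93).

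Gvin1 moved in both directions within 1 coding exon of 7281 bp. Of its 3 rows in the authors' deposited table, the one of 375 bp had 1.29 in WT and -0.67 in cKO, the one of 825 bp had 1.14 and 2.27, and the one of 100 bp had -0.49 and 2.10. Its input level was 20.04 FPKM in WT and 12.6 FPKM in cKO. Gvin1 is among the genes not checked for close copies that may share reads. Dst had 6 exonic rows in the authors' deposited table, 4 lower and 2 higher, and Syne2 had 7, of which 5 were lower. Over all exonic rows there, 58.3% were lower. The only Dst rows with an adjusted p below 0.05 were falls of -1.68 and -2.05 (adjusted p 0.0152 and 0.0385, authors' deposited table). In Syne2 the only such row was a rise, from -0.48 in WT to 1.86 in cKO (adjusted p 0.00160, authors' deposited table).

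The gene lists are read against the 58.3% of all exonic rows in the authors' deposited table that were lower, and the 62.9% at an adjusted p below 0.05. Zinc finger genes had 45 of 57 rows lower in the authors' deposited table (78.9%), and 25 of 29 at an adjusted p below 0.05. At their 73 one-to-one positions the median difference was -0.15, against 0.00 over all exonic positions, and 42 were lower, where 49.6% of all exonic positions were. Their exonic peaks were also stronger, with a WT median of 1.46 against 0.90 over all exonic peaks. In the strongest of the 5 groups of all exonic rows, 83.3% were lower in the authors' deposited table. Zinc finger rows were not compared with other rows of like enrichment. Cytoskeletal and scaffold giants had 23 lower and 10 higher rows in the authors' deposited table (69.7% lower), chromatin regulators 15 and 7 (68.2%), and giant ubiquitin ligases 7 and 5 (58.3%, the share over all exonic rows). Their one-to-one positions gave median differences of 0.07, -0.03 and 0.03. The m6A machinery had 3 rows in the authors' deposited table, all lower, and cytosolic ribosomal protein genes had 3, all higher, numbers too small to set against that share.

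Input levels and other cell types are given beside these differences. At genes with a mean input of at least 1 FPKM, the input difference was taken as log2(FPKM + 1) in cKO minus WT. Its median was -0.00 at the 823 lower exonic rows, -0.07 at the 570 higher rows and -0.03 over all 1393. Input was lower in the cKO for 65.4% of the higher rows and 50.2% of the lower rows, against 56.4% over all of them. All 7 macrophage markers with an input value were present in both inputs, at very different levels, and 5 were lower and 2 higher in the cKO. Lyz2, the lysozyme M gene whose locus drives the Cre, stood at 3393 FPKM in WT and 1980 FPKM in cKO. Since only the cKO carries the Cre, the level of Lyz2 is not independent of the genotype and is not read as a cell marker alone. Cd68 stood at 695 and 634 FPKM, Cd14 at 362 and 324 FPKM, Adgre1 at 219.6 and 162 FPKM, and Mertk at 11.6 and 6.29 FPKM. Itgam, at 179 and 188 FPKM, and Fcgr1, at 11.1 and 15.8 FPKM, were the higher ones. Among markers of other cell types with a value, all 4 fibroblast genes were higher in the cKO input: Col1a1 26.8 and 49.4 FPKM, Col3a1 19.1 and 34.0 FPKM, Sparc 32.4 and 66.7 FPKM, and Dcn 28.7 and 43.0 FPKM in WT and cKO. The epithelial marker Krt19 stood at 7.05 and 10.8 FPKM and the B cell marker Cd79a at 0.97 and 0.42 FPKM. The fibroblast and epithelial list had exonic peaks in 4 of 10 genes with a peak in WT and 3 of 10 in cKO. These genes held 4 exonic peaks in WT and 6 in cKO. Of the cKO ones 4 lay in Krt8, a keratin gene with none in WT and no input value. Krt19 and Cdh1 went the other way, with 1 each in WT and none in cKO. The part of these other cell types in the exonic differences was not tested. In such bulk libraries, fewer cells of a type and less RNA per cell cannot be told apart.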

How the data were processed

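m6A sequencing of 1 IP and 1 input library per genotype was analysed, grouped by the labels' titles. Build mm10 and the tools fastp, HISAT2, HOMER, ChIPseeker, StringTie and edgeR are named, without roles, per the submitters' processing notes. The sources used here do not name the peak caller or the scaling of libraries. Peak lists hold, per the file headers, log2 IP over input, a p-value and its adjusted form per peak, each called from 1 IP and 1 input library. The authors' deposited table of differences adds the log2 difference between genotypes with its p-value. Its WT column followed the WT list at 85 identical exonic positions (Pearson's r 1.00) and its cKO column the cKO list at 81 (r 1.00). Input FPKM was used for 7307 genes of the differential table as the authors deposited it.

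Listed starts count from 0, and positions are printed 1-based. Lengths within exons, exon numbers, coding bases and sequences came from merged GENCODE M21 exons and transcripts. Peaks were matched with bedtools 2.31.1 on the same strand by at least 1 bp, and one to one where each had 1 partner. Motifs were counted on the RNA strand. With 1 library per group no test was run: the printed p-values are the authors', compare these libraries and are no replicate check. The fibroblast and other marker genes, the gene lists and the regions themselves were chosen with earlier results of these data known. Named genes are the 10 with most exonic peaks per list, the 10 rows of lowest adjusted p, and Mettl3. Up to 4 genes of each of 12 lists were added. The 5 strongest peaks per list and the 10 largest rises and falls were taken in genes with at least 5 FPKM. Symbols beginning with Gm and a digit, ending in Rik, or mitochondrial were left out. The values of 1 gene of these lists are not reported here. Printed sequences, Ahnak and single marker genes were chosen after their values were seen. Python 3.11.15, pandas 2.3.3 and scipy 1.17.1 were used.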

Additional observations from a re-analysis of the deposited data

How the results depend on the processing

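No replicate supports any value, depth is unknown, and exon structure was rebuilt from an annotation. No paired analysis was possible because each group has 1 library. With a log2 IP over input of at least 1, 3478 WT and 3715 cKO exonic peaks remain of 8353 and 8765. With exons of the row's own transcript, an alternative chosen after seeing the data, the intron-spanning share was 59.5% in WT and 60.9% in cKO. With an overlap of at least 50% of both peaks, the shared positions were 30.6% and 29.9%, and the median difference at matched peaks was -0.010 (2311 pairs) in place of 0.00. With single-exon peaks only, the median log2 IP over input was 0.99 in each list, and 31 WT and 38 cKO genes had at least 4 exonic peaks, against 370 and 412. In place of GGAC, GGACT was found in 33.1% and 33.3% of WT and cKO peaks and GTCC in 61.8% and 63.1%. Of the differential rows, 62.9% were lower at an adjusted p below 0.05 (760 rows) and 53.8% with a 2-fold difference in addition (344 rows). The other 19 of 36 alternative values stayed within the interval of the reported one, or within 1.5 times for counts.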
